A study of Drosophila melanogaster with 4 samples.

Results

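The autosomal 3' UTR intervals comprised every interval of the authors' deposited 3' UTR table that lies on chromosome 2, 3 or 4 of Drosophila melanogaster, whatever its width. They numbered 3199 of the 4299 listed 3' UTR intervals and of 17175 intervals listed over 4 transcript regions, and they carried 2035 gene names. A further 1099 3' UTR intervals lay on the X chromosome and 1 on the Y. Intervals of different isoforms can hold the same reads, so same-strand overlapping intervals with an equal mean were merged, which left 2645 observations at 2115 separate loci.

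Individual-nucleotide resolution crosslinking and immunoprecipitation (iCLIP) recovers RNA fragments crosslinked by ultraviolet light to an immunoprecipitated protein. It was carried out in SL2 cells, a male line derived from Drosophila embryos, with a polyclonal rabbit antibody against Ssx (the Ssx IP, 2 libraries) and with rabbit IgG (the control IgG IP, 2 libraries). No genotype or treatment beyond the line and the antibody is labelled, and both groups came from the same line. Whether libraries of 1 group stem from separate cultures is not stated in the labels, and the p-values therefore reflect a spread between libraries that may be technical.

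Ssx, Sister of Sex-lethal, is a paralog of Sex-lethal (Sxl), the master switch of female development in flies. Both are RNA-binding proteins with RNA recognition motifs, and Sxl is known for binding uridine-rich RNA in introns and UTRs, where it controls splicing and translation. The 3' UTR lies downstream of the stop codon and is where many regulators of mRNA stability, localisation and translation bind. In male cells, which lack functional Sxl, the male-specific lethal (MSL) complex assembles on the X chromosome for dosage compensation.

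The tables hold comparison statistics and no value of a single library. They do not write out the direction of the fold change, and positive was taken to mean higher in the Ssx IP, a likely reading since the tables were deposited as Ssx-bound transcripts. Coordinates are those of dm6. The deposited means rise in steps, from which whole reads in 4 libraries were recovered, named A to D in order of falling size factor (2.09, 1.66, 0.760 and 0.473). Which library belongs to which group is not given in the tables, and no library was assigned to one. At the 2115 autosomal loci, the widest interval per locus summed to 8873, 7766, 3759 and 1396 reads in libraries A to D. The autosomal observations were sparsely covered, at a median of 5 reads over the 4 libraries together, with 640 observations at 2 reads and 73.1% at 2 to 9 reads. RNA abundance was not measured, so more reads on an abundant transcript and more binding per transcript cannot be told apart from the read counts.

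The main question was which autosomal 3' UTRs were recovered above the IgG background. Of 92 autosomal genes with an adjusted p, called tested genes below, 13 were higher in the Ssx IP and 1, Jabba, was lower at a DESeq2 adjusted p under 0.05 in the authors' deposited table. The 13 higher genes were 14.1% of the tested autosomal genes, while over all tested 3' UTR genes, X-linked ones included, 36.5% were called higher and 1.12% lower. The 13 names came from 12 loci and 17 observations, of 130 tested autosomal observations. Over all tested 3' UTR observations, 32.3% were called higher and 0.778% lower in the authors' deposited table. These counts and shares cover listed intervals only. The deposited adjusted p fits 550 intervals, of which 289 are listed with one. For brat it was 0.0447 by DESeq2 as deposited and 0.0503 by Benjamini-Hochberg over the listed ones. The unlisted intervals therefore include small p-values, and their calls are missing from the counts. A gene had to reach a mean of about 7.4 normalized reads to be tested. In the authors' deposited table the tested observations with the lowest mean were those of Lam (7.41) and Bsg (7.44), and those with the highest mean without an adjusted p were zfh2 (7.35) and a shorter interval of AGO1 (7.35).

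The called genes were spread over every arm. Arm 2L had 4 genes higher of 22 tested, arm 2R had 3 of 15 and the 1 lower gene, arm 3L had 3 of 26, arm 3R had 2 of 27 and chromosome 4 had 1 of 2, by the adjusted p of the authors' deposited table. By that adjusted p, 52 of 86 tested X-linked genes were higher and 1 was lower. In the authors' deposited table the called higher autosomal observations had log2 fold changes of 2.36 to 4.96, with a median of 3.62. They held between 58 and 174 reads each, a median of 94, over the 4 libraries together. The tested observations that were not called, 112 in number, had a log2 fold change of 0.27 at the median in the authors' deposited table, and 68 of them were positive.

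**Figure D1:**
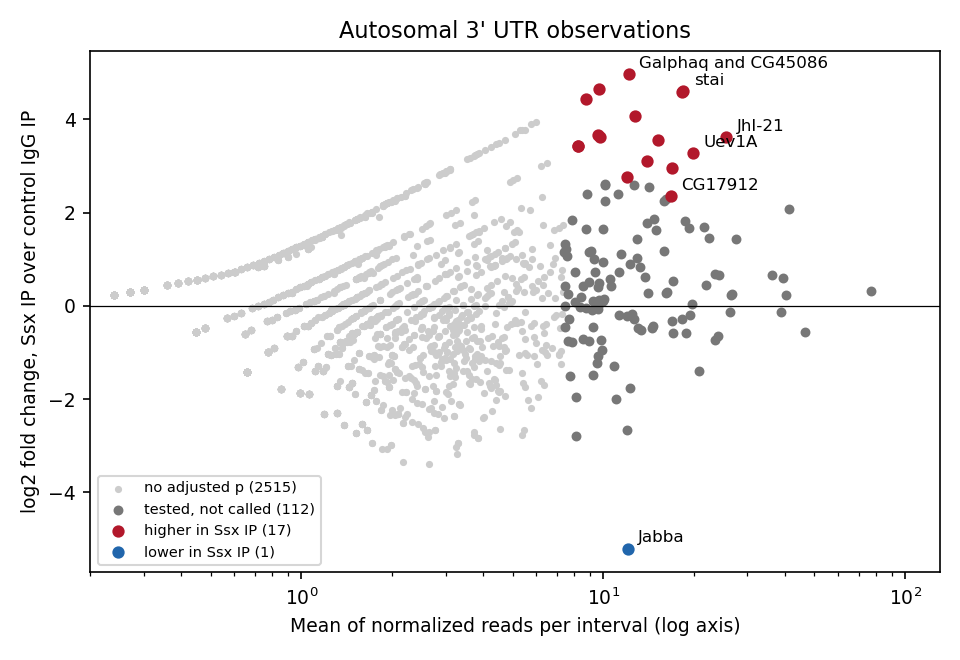
Each point is 1 autosomal 3' UTR observation, with the mean of normalized reads on a log axis and the deposited log2 fold change, Ssx IP over control IgG IP, on the other axis. The 17 observations called higher lie between 2.36 and 4.96, Jabba lies alone at -5.21, and the 112 tested observations that were not called spread on both sides of 0.

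The smallest adjusted p among the higher genes belonged to stai, which encodes stathmin, a protein that destabilises microtubules. Its longer interval (2L, 6123065 to 6124653, plus strand, 1589 bases) held 68, 66, 1 and 0 reads in libraries A to D. Its log2 fold change was 4.60 ± 1.24 in the authors' deposited table (SE, adjusted p = 0.00235 by DESeq2) at a mean of 18.4 normalized reads. The reads thus lay almost wholly in libraries A and B, in nearly equal numbers. JhI-21, an amino acid transporter subunit induced by juvenile hormone, had the most reads of the called observations (2L, 12051755 to 12052229, minus strand, 475 bases). It held 47, 123, 4 and 0 reads in libraries A to D, or 366 reads per kb. In the authors' deposited table its log2 fold change was 3.62 ± 1.04 (adjusted p = 0.00431 by DESeq2). Library B alone gave most of these reads, and the interval overlaps the annotated gene PLCXD, whose strand is not given in the annotation used here.

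Signalling and enzyme genes followed. Galphaq encodes the G protein alpha subunit that couples rhodopsin to phospholipase C in photoreceptors, and its shortest interval (2R, 12619147 to 12619820, plus strand, 674 bases) held 22, 63, 0 and 0 reads in libraries A to D. Its log2 fold change, 4.96 ± 1.46 in the authors' deposited table (adjusted p = 0.00531 by DESeq2), was the largest of the listed autosomal 3' UTRs. CG45086 overlaps it on the same strand with an interval of 757 bases that holds the same 85 reads, so the gene of origin is uncertain. Sk2, a sphingosine kinase, held 23, 46, 0 and 0 reads in 505 bases (3L, 3049655 to 3050159, plus strand). Its log2 fold change was 4.66 ± 1.48 in the authors' deposited table (adjusted p = 0.00974 by DESeq2). Sk2 and the shortest Galphaq interval had reads in libraries A and B alone, while the longer Galphaq intervals had up to 3 reads in library C and 1 in library D. Uev1A, a catalytically inactive partner of ubiquitin-conjugating enzymes, held 55, 79, 4 and 0 reads in 991 bases (3L, 5362884 to 5363874, minus strand). The authors' deposited table gives it a log2 fold change of 3.27 ± 1.05 (adjusted p = 0.0105 by DESeq2).

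larp and brat were also called. larp, a La-related protein that works with the poly(A)-binding protein, held 52, 45, 3 and 0 reads in libraries A to D over 2420 bases (3R, 28318162 to 28320581, minus strand). Its log2 fold change was 3.10 ± 1.15 in the authors' deposited table (adjusted p = 0.0231 by DESeq2). brat, a translational repressor that acts with Pumilio and Nanos on hunchback mRNA, held 21, 36, 1 and 0 reads in 1308 bases (2L, 19171260 to 19172567, plus strand). This interval had 3.43 ± 1.40 on the log2 scale in the authors' deposited table (adjusted p = 0.0447 by DESeq2), close to the threshold. The longest brat interval, 8499 bases, had 1.87 ± 1.09 and was not called (adjusted p = 0.171 by DESeq2 in the authors' deposited table). The shortest brat interval, 593 bases, held 36 reads and had 3.68 in the authors' deposited table (unadjusted p = 0.0211 by DESeq2). Its mean of 5.11 normalized reads was under the filter, so it had no adjusted p and could not be called. The longest interval contains the called interval with all its reads, and it also overlaps the annotated gene CG17568. The call therefore does not assign the reads to a particular isoform end.

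The remaining called genes were mspo, CG12592, CG11360, CG10077 and CG17912. mspo encodes M-spondin, a secreted matrix protein, and held 10, 50, 0 and 0 reads in 414 bases (2R, 14671953 to 14672366, minus strand). In the authors' deposited table its log2 fold change was 4.44 ± 1.52 (adjusted p = 0.0153 by DESeq2), and library B gave 83.3% of its reads, the highest share from 1 library among the observations called higher. CG12592 held 53, 40, 1 and 0 reads in only 321 bases (3R, 10340552 to 10340872, plus strand), or 293 reads per kb. Its log2 fold change was 4.07 ± 1.31 in the authors' deposited table (adjusted p = 0.0103 by DESeq2). It had the narrowest interval of those called higher, and the second highest density of reads among the called genes after JhI-21.

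CG11360, the called gene on chromosome 4, had the widest called interval, 4610 bases (4, 686041 to 690650, plus strand), with 45, 26, 1 and 0 reads in libraries A to D. The authors' deposited table gives a log2 fold change of 3.66 ± 1.36 (adjusted p = 0.0235 by DESeq2). CG10077 (3L, 6951804 to 6953758, minus strand) held 51, 31, 2 and 1 reads. Its log2 fold change was 2.77 ± 1.15 in the authors' deposited table (adjusted p = 0.0463 by DESeq2). CG17912, now named BuGZ after a zinc finger protein of the mitotic spindle, held 57, 50, 4 and 2 reads (2L, 16749428 to 16753704, plus strand). Its value in the authors' deposited table, 2.36 ± 0.99, was the smallest fold change of the called genes (adjusted p = 0.0471 by DESeq2). CG10077 and CG17912 were the called genes with reads in all 4 libraries in the interval with the smallest p, and both lay just inside the threshold.

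The lower gene, Jabba, encodes a lipid droplet protein that holds histones on the droplet surface. Its interval (2R, 18757629 to 18757918, minus strand, 290 bases) held 1, 0, 33 and 2 reads in libraries A to D. The log2 fold change was -5.21 ± 1.35 in the authors' deposited table (adjusted p = 0.00133 by DESeq2). Library C alone gave 91.7% of its 36 reads, and without a second library of similar counts the value rests on that library. An annotated intron of Jabba contains the interval and also holds 36 reads (-5.62 ± 1.26 in the authors' deposited table), so the reads cannot be given to the UTR alone. A coding sequence interval of Jabba also contains it, and had -1.72 ± 1.52 in the authors' deposited table (adjusted p = 0.855 by DESeq2), which was not called.

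**Figure D2:**
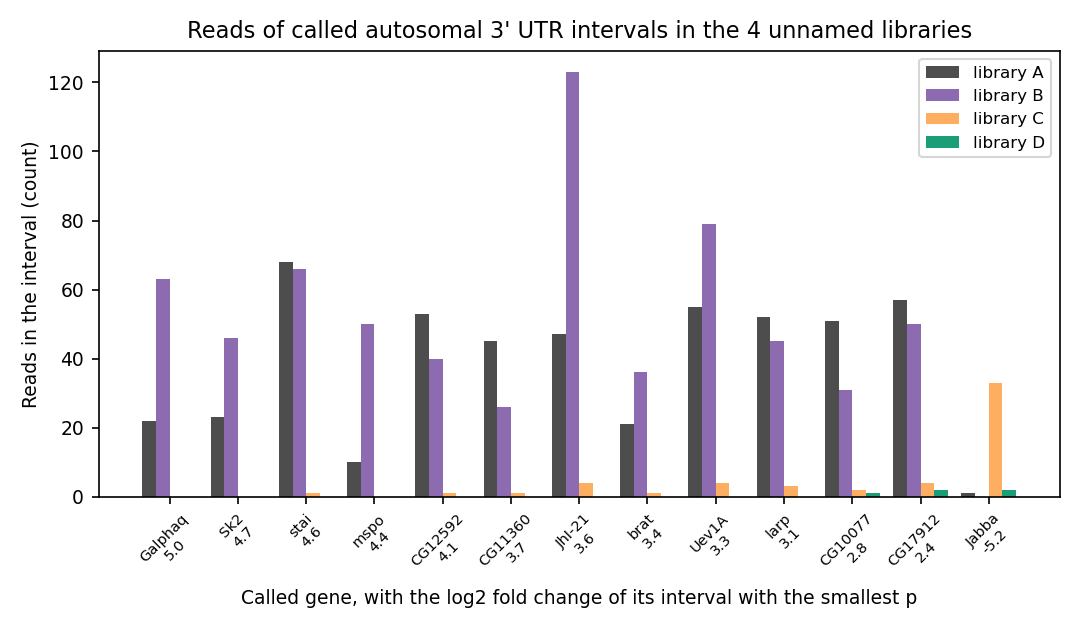
Bars give the recovered reads in each of the 4 unnamed libraries for the called interval with the smallest p of each gene, ordered by log2 fold change, which stands under the name in short form. Genes called higher have nearly all their reads in libraries A and B, while Jabba has 33 of its 36 reads in library C.

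The reads of the called loci were also summed by library. The 12 loci called higher summed to 540, 680, 32 and 4 reads in libraries A to D, which is 43.0%, 54.1%, 2.55% and 0.318% of their reads. All autosomal 3' UTR loci gave 40.7%, 35.6%, 17.2% and 6.41%. X-linked 3' UTR loci gave 43.6%, 49.8%, 4.68% and 1.92%. Libraries C and D took a smaller share at the called autosomal loci than over all autosomal ones, but the loci were called from these same reads, so the shares are a description and no separate support.

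Next to the threshold stood 6 genes. CG4467 (5, 5, 29 and 2 reads in libraries A to D, 70.7% of them from library C) and psq, a BTB-domain transcription factor (4, 2, 11 and 7 reads), had negative values. In the authors' deposited table these were -2.66 ± 1.13 (adjusted p = 0.0502 by DESeq2) and -2.79 ± 1.20 (adjusted p = 0.0508 by DESeq2). After Jabba they were the most negative values among the tested genes. On the positive side, unk, the zinc finger RNA-binding protein Unkempt, held 20, 67, 2 and 2 reads, and vig, a component of the RNA interference complex, held 39, 44, 4 and 0. Their log2 fold changes, from the authors' deposited table, were 2.56 ± 1.12 for unk (adjusted p = 0.0567 by DESeq2) and 2.59 ± 1.15 for vig (adjusted p = 0.0595 by DESeq2). S6k, the ribosomal protein S6 kinase of the growth pathway, and crc, the fly ATF4 transcription factor, had 2.61 ± 1.23 and 2.59 ± 1.25 in the authors' deposited table (adjusted p = 0.0772 and 0.0829 by DESeq2). The vig interval overlaps the annotated genes solo and vas, and the crc interval overlaps CG46314, whose strands are not given in the annotation used here. None of these 6 genes passed the test.

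The most heavily covered of the listed autosomal 3' UTRs were not called. pAbp, the cytoplasmic poly(A)-binding protein, held 161, 157, 68 and 22 reads in libraries A to D, the most of any autosomal 3' UTR interval. Its log2 fold change was 0.31 ± 0.59 in the authors' deposited table at a mean of 76.9 normalized reads (adjusted p = 0.738 by DESeq2). sty, the signalling inhibitor Sprouty, held 75, 64, 38 and 29 reads and had -0.56 ± 0.64 in the authors' deposited table (adjusted p = 0.572 by DESeq2). All 4 libraries covered both genes, and both standard errors were larger than the size of the fold change. ap, the LIM-homeodomain factor Apterous, held 99, 79, 23 and 15 reads and had 0.59 ± 0.68 in the authors' deposited table (adjusted p = 0.572 by DESeq2). nrv1, a beta subunit of the sodium pump, held 83, 174, 15 and 0 reads, and its 2.09 ± 1.57 in the authors' deposited table did not pass the test either (adjusted p = 0.319 by DESeq2). Its standard error was the widest of these 4 genes.

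**Figure D3:**
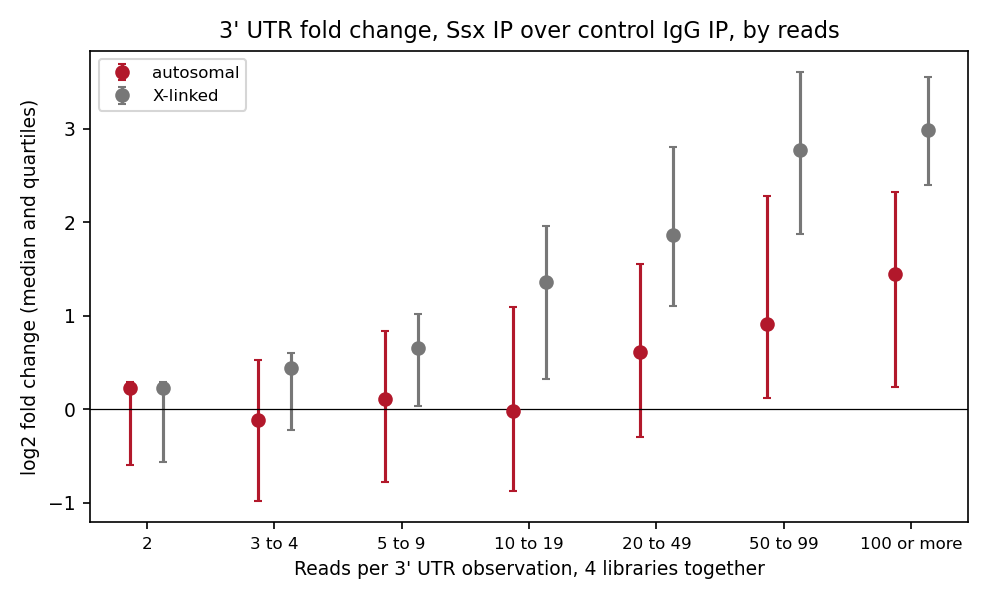
Median log2 fold change, Ssx IP over control IgG IP, with quartiles as bars, of autosomal (left of each pair) and X-linked 3' UTR observations in classes of reads summed over the 4 libraries. The autosomal medians stay between -0.12 and 0.23 up to 19 reads and reach 1.44 at 100 reads or more, where the X-linked median is 2.98.

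Fold changes varied with coverage. Among autosomal observations with 2 reads the median log2 fold change was 0.23 in the authors' deposited table and 52.7% were positive. With 10 to 19 reads the median was -0.02 and 49.3% were positive. It was 0.61 with 20 to 49 reads, 0.91 with 50 to 99 (60 observations) and 1.44 with 100 or more (31 observations), of which 83.9% were positive in the authors' deposited table. X-linked observations of the same classes had medians of 0.23 at 2 reads, 1.36 at 10 to 19, 1.87 at 20 to 49, 2.77 at 50 to 99 and 2.98 at 100 or more. The autosomal median was the lower one in every class from 3 reads upward. This is a description with no test, because the summed reads include those that make the fold change, so the classes are not independent of it. Fold changes at few reads were also confined: an interval with 2 reads, both in library A, had 0.23 ± 1.69 in the authors' deposited table. Whether the deposited fold changes were shrunken towards 0 at low counts was not given. Medians near 0 at few reads therefore do not show equal recovery in both groups. Over all autosomal observations, 52.7% were positive in the authors' deposited table and the median was 0.13, against 59.9% positive and a median of 0.23 over all listed 3' UTR observations.

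Widths of called and other tested intervals overlapped. The median width was 1308 bases (321 to 4610) for the observations called higher and 1642.5 bases (269 to 11842) for those tested and not called. The density was a median of 68.0 reads per kb in the called higher observations and 43.6 reads per kb in those tested and not called. Observations without an adjusted p were narrower, with a median of 619 bases, and held a median of 8.32 reads per kb. The calls and the coverage filter depend on these same reads, so the densities are a description and no separate support.

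Nested intervals that start at the same stop codon end and differ in their distal end allowed the reads to be placed along the UTR. Distances are counted in bases from the stop codon end. In Galphaq, bases 1 to 674 held 85 reads, or 126 reads per kb, bases 675 to 2096 held 19 (13.4 reads per kb) and bases 2097 to 4051 held 10 (5.12 reads per kb). By the authors' deposited table the log2 fold changes were 4.96 for the shortest interval, 3.56 ± 1.17 for that of 2096 bases (adjusted p = 0.0126 by DESeq2) and 2.95 ± 1.06 for that of 4051 bases (adjusted p = 0.0212 by DESeq2). Both the density and the fold change of Galphaq were highest in the shortest interval. In stai, 134 of 135 reads lay in the first 835 bases (160 reads per kb). In mspo, 60 reads lay in bases 1 to 414 and 6 in bases 415 to 971, and the interval of 971 bases had 3.62 ± 1.40 in the authors' deposited table (adjusted p = 0.0305 by DESeq2). That longer interval overlaps the annotated gene Targ.

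brat had 36 reads in bases 1 to 593 (60.7 reads per kb), 22 in bases 594 to 1308 (30.8 reads per kb) and 38 in bases 1309 to 8499 (5.28 reads per kb). Its distal 7191 bases held 18, 13, 7 and 0 reads in libraries A to D, so library C contributed there more than in the proximal segments, which held 0 and 1 of its reads. unk, which was not called, resembled them, with 91 reads in its first 898 bases (101 reads per kb) and 11, 2, 13 and 1 reads in the following segments. In CG11360 the first 1525 bases held 47 reads (30.8 reads per kb) and the following 2030 and 1055 bases held 15 and 10. In S6k, likewise not called, 64 of 73 reads lay in the first 1482 bases.

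The opposite arrangement occurred too. In Uev1A, bases 1 to 689 held 68 reads (98.7 reads per kb) and bases 726 to 991 held 63 (237 reads per kb), of which 28 and 35 came from libraries A and B and 0 from C and D. The shorter Uev1A intervals of 689 and 725 bases had 2.24 ± 1.22 and 2.39 ± 1.19 in the authors' deposited table and were not called (adjusted p = 0.134 and 0.0969 by DESeq2), so the call rests on the interval with the distal 266 bases. CG17912 had 2 reads in bases 1 to 516, 39 in bases 517 to 2586 (18.8 reads per kb) and 72 in bases 2587 to 4277 (42.6 reads per kb). nrv1 had 53 reads in bases 1 to 549 (96.5 reads per kb) and 219 in bases 550 to 818 (814 reads per kb), with 57, 151, 11 and 0 in libraries A to D. The distal 269 bases of nrv1 were thus the densest segment among the named genes, and they held the bulk of its reads.

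Over all autosomal genes there were 137 such nested sets with at least 20 reads in the longest interval, from 134 genes. The shortest interval was denser than the rest in 81 of them (59.1%), with medians of 20.6 reads per kb in the shortest interval and 10.7 in the rest. It held a median of 40% of the reads in 34.6% of the length. Its log2 fold change was the higher one, against the longest interval of the set, in 49 of the 137 sets in the authors' deposited table. Among 120 X-linked sets the shortest interval was denser in 75 (62.5%) and held a median of 71.6% of the reads in 43.2% of the length, with the higher fold change in 29. Every longer interval holds all reads of the shorter one, so the counts of higher fold changes depend on coverage as well. In stai, 1 added read went with 4.60 in place of 4.59 in the authors' deposited table. These sets come from the isoforms that the annotation lists, and which isoform the cells made was not measured.

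**Figure D4:**
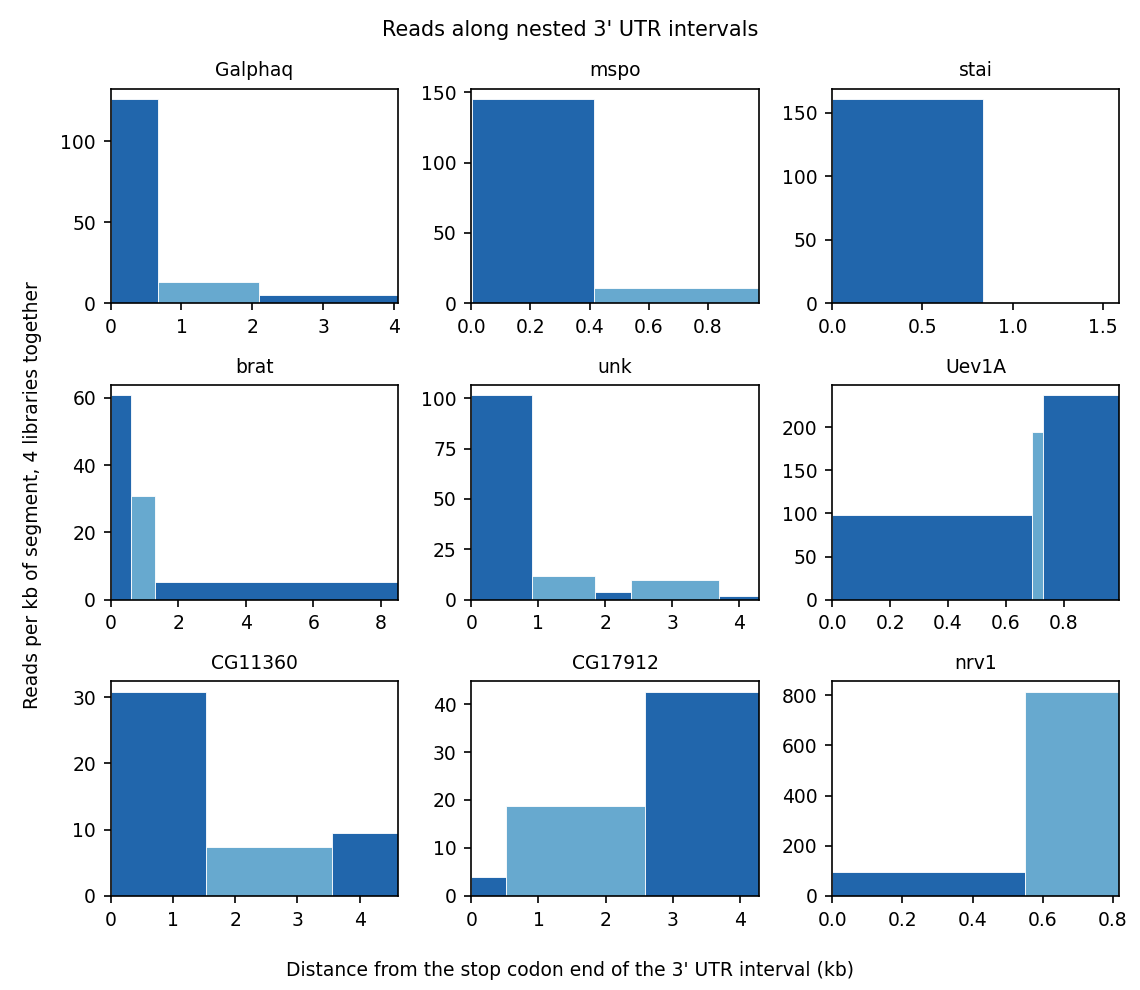
Bars give reads per kb, summed over the 4 libraries, in the segments between the ends of nested 3' UTR intervals, plotted by distance from the stop codon end in kb (shades only separate neighbouring segments, and each panel has its own scales). Galphaq, mspo, stai, brat, unk and CG11360 are densest in the first segment, while Uev1A, CG17912 and nrv1 are densest in the last.

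The called genes were next described in their other regions, in intervals that overlap no listed 3' UTR interval on the same strand, taking the 1 with the smallest p per gene and region. Of the called genes, 8 had such a coding sequence interval, and 0 of these were called by DESeq2, with 0 at an unadjusted p under 0.05 in the authors' deposited table. Over all 1432 tested genes, 0% were called higher and 0% lower in coding sequence, so the count says nothing particular to these genes. Their log2 fold changes there were 0.61 to 1.12, all positive, beside a median of 0.66 over all coding sequence intervals, of which 68.3% were positive in the authors' deposited table. That background was not picked by smallest p, as the values of the called genes were, so they are not like for like. Each coding sequence value had a standard error larger than the value itself. Introns of 11 called genes had values of -0.67 to 1.67 in the authors' deposited table, 8 of them positive, and none had an adjusted p. Over all listed introns, likewise not picked by p, 62.3% were positive. Over all tested intron genes 4.73% were called higher and 6.9% lower. Galphaq and CG45086 share 1 of these introns. A 5' UTR interval was listed for 3 called genes, likewise with no adjusted p, while over all tested 5' UTR genes 11% were called higher and 0% lower. Coverage was low, with means of at most 2.43 normalized reads in coding sequence and 3.29 in introns in the authors' deposited table.

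Some called 3' UTR reads lay in annotated introns as well. The CG10077 interval lies inside an annotated intron that held 116 reads and had 2.59 ± 1.10 in the authors' deposited table (adjusted p = 0.105 by DESeq2). An intron of brat that overlaps its UTR held 92 reads and had 1.34 ± 1.12 in the authors' deposited table (adjusted p = 0.474 by DESeq2). Of the genes next to the threshold, crc (3.46 ± 1.56, adjusted p = 0.117 by DESeq2) and psq (1.75 ± 1.98, no adjusted p) had a listed 5' UTR interval in the authors' deposited table, neither of them called. Introns of these genes that overlap no listed 3' UTR had no adjusted p. Taken from the authors' deposited table, their values were 2.60 ± 1.56 for crc, 2.29 ± 1.58 for psq, -0.60 ± 1.51 for CG4467, -0.78 ± 1.55 for unk and -1.18 for S6k, whose standard error was larger than its value. The signs for psq, unk and S6k were opposite to those of their 3' UTRs, in values of which none passed a test.

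Gene lists were described by counts, beside the 14.1% of tested autosomal genes called higher. Of RNA turnover and translational repression genes, 9 were listed and 3 tested, and brat was higher. The other tested members were AGO1, the microRNA effector, at 0.52 ± 1.17 and pum, the repressor Pumilio, at -0.94 ± 1.07 in the authors' deposited table (adjusted p = 0.789 and 0.572 by DESeq2). A shorter pum interval without an adjusted p had 0.36 ± 1.47 in the authors' deposited table. The 22 observations of this list had a log2 fold change of 0.27 at the median in the authors' deposited table, and 14 were positive.

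Of splicing factors and hnRNPs, 23 were listed and 4 tested, and 0 were called by DESeq2, with 0 at an unadjusted p under 0.05. The hnRNP genes Hrb27C (0.68 ± 0.82), sqd (0.65 ± 0.76) and Syp (0.63 ± 0.97) had small positive values in the authors' deposited table, all within 1 standard error of 0. The tested intervals of ps, an RNA-binding protein of the Nova family, had -0.21 ± 1.03 and 0.04 ± 0.86 in the authors' deposited table. The 44 observations of this list had a median of 0.23 in the authors' deposited table, and 25 were positive. Cytoplasmic ribosomal protein genes numbered 53 listed and 1 tested, RpL13A, at -0.73 ± 1.24 in the authors' deposited table (adjusted p = 0.700 by DESeq2). Of their 69 observations 27 were positive, with a median of -0.31 in the authors' deposited table.

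Among 20 chromatin and transcription regulators, 3 were tested and 0 called by DESeq2. Besides psq these were bun, a leucine zipper factor of growth control, at -0.76 ± 1.17, and kay, the fly Fos, at -1.23 ± 1.12 in the authors' deposited table (adjusted p = 0.677 and 0.451 by DESeq2). A longer tested bun interval had -0.47 ± 0.97, while shorter ones without an adjusted p had 1.19 ± 1.61 and 1.03 ± 1.64 in the authors' deposited table. Of 13 signalling genes 3 were tested and 0 were called by DESeq2. The tested ones were sty, the adaptor 14-3-3epsilon (-0.70 ± 1.13 in the authors' deposited table) and the JAK-STAT transcription factor Stat92E. Stat92E had 0.11 ± 1.09 and, in a shorter tested interval, -0.03 ± 1.11 in the authors' deposited table. The signalling list had a median of -0.46 in the authors' deposited table, with 9 of 25 observations positive. Of 12 long genes with many isoforms 3 were tested, bun, ps and pum, and 0 were called by DESeq2, with 19 of 31 observations positive in the authors' deposited table. In these lists only psq had an unadjusted p under 0.05 among the tested genes.

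Translation factors had 10 listed genes and 1 tested, pAbp. Of 9 chaperone and folding genes, Pdi, a disulfide isomerase, was tested and had -1.08 ± 1.12 in the authors' deposited table (adjusted p = 0.525 by DESeq2), with 2 of 9 observations positive. The 104 histone genes gave 107 observations with at most 18 reads, 26 of them positive, with a median of -0.91 in the authors' deposited table. By the interval with the smallest p of each gene, the His2B copies were all positive (0.04 to 1.79 in the authors' deposited table). The His1, His2A, His3 and His4 copies were all negative, so the median of the list pools histone types of opposite sign. The histone genes are near-identical copies, so the assignment of their reads is uncertain. Cytoskeleton and adhesion genes (15 listed, median 0.27 in the authors' deposited table) and glycolysis and energy genes (6 listed, median -1.78 in the authors' deposited table) had no tested member. The germline list had 1 listed gene, tud, and the non-coding list 1, neither of them tested.

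Markers were checked against the cell line, which has haemocyte features. Of the haemocyte and SL2 markers 14 had a listed 3' UTR interval, with at most 43 reads, and the collagen gene Cg25C, now Col4a1, was tested. It held 14, 17, 11 and 1 reads in libraries A to D and had -0.02 ± 1.20 in the authors' deposited table (adjusted p = 0.990 by DESeq2). Of the neuron markers brp was listed with 5 reads, and of the muscle, germline, fat body and gut markers 0 were listed. These marker counts cover autosomal 3' UTR intervals only, so a marker gene on the X chromosome could not appear in them. Reads in an immunoprecipitate are not a census of expressed genes, so a marker that is not listed is not shown to be absent from the cells.

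Sex determination and dosage compensation genes had 9 listed members and none tested, since their coverage was under the level of the filter. msl-2, the subunit of the MSL complex whose mRNA Sxl represses in females, held 21, 23, 0 and 0 reads in libraries A to D (2L, 3462218 to 3463265, minus strand). The authors' deposited table gives it a log2 fold change of 3.95 ± 1.56 with no adjusted p (unadjusted p = 0.0111 by DESeq2). msl-3, another subunit, held 11, 27, 0 and 0 reads (3L, 7123213 to 7123532, minus strand). It had 3.76 ± 1.59 in the authors' deposited table (unadjusted p = 0.0177 by DESeq2). msl-1, the scaffold of the complex, had 2.69 ± 1.51 with 35 reads in the authors' deposited table (unadjusted p = 0.0753 by DESeq2). Both msl-2 and msl-3 had their reads in libraries A and B alone, which describes the reads behind their fold changes and is no separate support. Neither they nor msl-1 can be called, since they have no deposited adjusted p. Of the list's 13 observations 7 were positive, and the other members, among them dsx, fru, emc and fl(2)d, held at most 19 reads each in the interval with the smallest p.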

How the data were processed

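Per the submitters' processing notes, cutadapt 1.6, Bowtie 0.12.7, DESeq2 1.14.1 and DESeq were used with the builds BDGP6 and dm6. How reads were counted, deduplicated, assigned by strand and annotated was not given in the sources used here. Per the file headers, the deposited mean is the authors' signal, a mean of normalized reads per interval. Fold changes, with standard errors, are on the log2 scale as deposited by the authors. The deposited statistic is a score equal to fold change over standard error, and the deposited p-value is its two-sided normal p (largest differences 2.4e-14 and 2.4e-15 over all rows). The deposited adjusted p fits 550 intervals, of which 289 are listed with one. The others are not listed, so their calls are missing from the counts and shares given here.

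From these values, whole reads per library were recovered from the steps of the means (unique for 100% of 1391 distinct means, relative tolerance 1e-13). The plan assumed counts or, failing these, the deposited statistics, and the deposited statistics were used, so values carry no SD or n of their own. Of 2035 gene names, 1738 are current and 2010 matched RefSeq Release 6, and 99.9% of intervals lie inside the matched gene. The named genes are the 14 called, the next 6 by adjusted p, the 4 with the highest mean, the 3 most negative and 3 most positive folds, the tested list members and the intervals at the filter's edge. The members and lists were chosen with earlier results of these data known. The dosage compensation genes msl-1, msl-2 and msl-3 and the marker gene Cg25C were added after their values were seen. The recovery of reads was tested on simulated data. Alternatives varied the threshold, the adjustment, the filter, the direction, the centring and the handling of overlaps. Python 3.11.15, pandas 2.3.3, numpy 2.4.6 and scipy 1.17.1 were used.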

Additional observations from a re-analysis of the deposited data

How the results depend on the processing

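The 13 genes and 17 observations called higher, and the 1 gene called lower, were recounted under other settings. At a threshold of 0.01 the counts were 5 genes and 5 observations higher and 1 gene lower. At 0.1 they were 17 genes and 24 observations higher and 3 genes lower. With the Benjamini-Hochberg adjustment over all listed 3' UTR intervals, 1 gene (stai) and 2 observations were higher. Over the 4 region tables together 0 genes and 0 observations were higher by the deposited DESeq2 p-values, although 24 tested observations were positive with an unadjusted p under 0.05, and Jabba was the gene that was still called. These adjustments cover many more sparsely covered intervals. Adjustment over the listed tested intervals lost brat (0.0503), CG10077 (0.0519) and CG17912 (0.0524). A mean of at least 10 normalized reads left 11 observations higher. With the opposite direction 1 gene and 1 observation would be higher and 13 genes lower. Among alternatives chosen after seeing the data, intervals with at most 2/3 of their reads in 1 library left 0 genes lower, and Jabba, JhI-21, mspo and CG45086 lost their calls. Reads in at least 3 libraries removed Sk2 and CG45086, and no annotated gene on either strand removed Galphaq, CG45086 and JhI-21. The median log2 fold change of tested observations, 0.44, was 0.13 over all listed observations, 0.64 at a mean of at least 10 and 0.20 after centring on all listed 3' UTR observations. The share of positive observations, 52.7%, was 65.4% among tested observations, 69.2% at a mean of at least 10 and 41.6% after centring. Both filters on the mean use the reads that make the fold change, so medians and shares within them are not independent of it.

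No paired analysis was possible because the tables hold no values per named library. Leaving out each replicate was not run, because the recovered libraries carry no group labels and no group was inferred from values, and shares of intervals with a uridine run were not run, as no genome sequence was used here. Depth limits what can be tested: 73.1% of autosomal observations hold 2 to 9 reads, and none of the observations under the filter has an adjusted p.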

Other observations

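Below the coverage filter, 17 of 2515 autosomal observations without an adjusted p had an unadjusted p under 0.05 in the authors' deposited table (0.676%), of which 16 were positive, with 16 to 47 reads each. Among the tested observations 27 of 130 had such a p, 24 of them positive. Besides msl-2, msl-3 and the shortest brat interval, the smallest of these p-values belonged to PGRP-SD, an immune recognition protein, CG7650, CG10420, Eip55E and CG3077, which were chosen after their values were seen. The authors' deposited table gives log2 fold changes of 3.90 for PGRP-SD, 3.77 for CG7650, 3.76 for CG10420, 3.55 for Eip55E and 3.50 for CG3077. Each of these intervals had all its reads in libraries A and B, from 32 reads for CG3077 to 43 for PGRP-SD. They were picked by p-values that come from these same reads, so the library pattern is a description and no separate support.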
